A study of Mus musculus with 7 samples.

Results

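The 7 genes of the small heat shock protein family that are expressed in skeletal muscle and listed here (Hspb1, Hspb2, Hspb3, Hspb6, Hspb7, Hspb8 and Cryab) and Bag3, the co-chaperone that works with Hspb8, were followed across immobilized mouse calf muscle with and without DJ-1. The 8 genes were taken by symbol from a table of 21487 genes, and all 8 were among the 13409 genes with enough counts to be tested. RNA came from gastrocnemius (a mostly fast calf muscle) of mice with a skeletal muscle knockout of DJ-1, labelled MPARK7KO (4 libraries, called knockout 1 to 4), and of flox mice, labelled WT (3 libraries, called control 1 to 3). DJ-1, which Park7 encodes, helps cells withstand oxidative stress. Both groups carried the treatment immobilization-induced muscle atrophy and no library came from a muscle left free to move. The effect of disuse itself therefore could not be measured. The Cre driver, the exons removed, and the age and sex of the mice are not stated in the labels used here, nor is it said that each library came from a separate mouse, so p-values measure the spread between these samples only.

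Small heat shock proteins are chaperones that need no ATP. They hold unfolding proteins in a soluble state until chaperones of the HSP70 class take them over, and in striated muscle they bind the Z-disc, desmin filaments, titin and actin. Bag3 joins Hspb8 to HSP70 and the ubiquitin ligase Stub1 (CHIP) in an assembly that removes stretched or damaged filamin by autophagy. Several members, Cryab and Hspb7 among them, are known to be abundant in heart and slow muscle, and mutations in CRYAB, HSPB8 or BAG3 cause muscle disease in people.

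The libraries held between 24458343 and 26389010 counts. Levels are CPM, counts scaled to a common library total by TMM, a normalization that assumes most genes do not change. Park7, the targeted gene, read 240, 229 and 266 CPM in the controls and 35.9, 41.5, 34.7 and 37.2 CPM in the knockouts, 0.152 times the control mean (log2 fold change -2.71, SE 0.0895, adjusted p = 2.53e-06 by the quasi-likelihood test of edgeR with Benjamini-Hochberg adjustment, used throughout). Other features of the libraries moved with the groups: mRNAs of mitochondrial DNA took 17.0% to 19.97% of control counts and 8.72% to 11.6% of knockout counts, and the summed level of 11 slow fibre genes was 1874 to 2197 CPM in controls and 87.6 to 743 CPM in knockouts. Among fast myosins, Myh4 was higher in the knockouts (log2 fold change 1.11, adjusted p = 0.0381) and Myh1 and Myh2 lower (-1.45 and -2.25, adjusted p = 0.0292 and 0.0485), calls that each ended without 4 or more of the libraries in turn (adjusted p up to 0.152, 0.0788 and 0.117). The slow fibre genes are set against the members below, and the part of the other features was not tested. Skeletal muscle markers were abundant in every library: the summed level of 8 of them ran from 66129 to 82420 CPM over all libraries.

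The genes lie on 5 chromosomes of GRCm38. Hspb1 (chr5:135887919-135889563) and Hspb8 (chr5:116408491-116422864) are on chromosome 5, and Hspb6 (chr7:30552178-30555443) and Bag3 (chr7:128523616-128546981) are on chromosome 7. Hspb7 is at chr4:141420779-141425311 and Hspb3, which has 1 exon, at chr13:113662896-113663676. Cryab (chr9:50751325-50756636, plus strand) and Hspb2 (chr9:50751078-50752354, minus strand) are a head-to-head pair, and 1030 of the 1277 bases of the Hspb2 gene lie inside the Cryab gene as annotated, because 2 of the 6 Cryab transcripts begin within Hspb2. Both had counts that were not whole numbers in all 7 libraries, which marks reads shared with another gene. The strand of the protocol is not given, so the split of reads between Hspb2 and Cryab is uncertain.

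Promoter windows from RefSeq (GRCm38.p6, 250 bases before to 50 bases after each annotated start) were matched for 6 of the 8 genes. There were 7 windows because Hspb6 has 2, and none for Cryab or Hspb2. The 250 bases upstream are shown for Hspb6 (its second window, chr7:30553051-30553300) and Hspb7 (chr4:141420529-141420778), whose levels fell, and for Hspb1 (chr5:135887669-135887918), the gene with the largest excess in a single control. All 3 lie on the plus strand. Capitals mark the short form of the heat shock element, the site of heat shock factors (GAANNTTC or TTCNNGAA), and the TATA box TATAAA.
Hspb6, second window: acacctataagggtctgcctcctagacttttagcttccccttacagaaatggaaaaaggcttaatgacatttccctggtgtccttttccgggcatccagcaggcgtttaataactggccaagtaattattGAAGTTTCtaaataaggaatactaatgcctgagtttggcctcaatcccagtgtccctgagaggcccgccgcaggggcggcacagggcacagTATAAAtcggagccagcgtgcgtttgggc
Hspb7: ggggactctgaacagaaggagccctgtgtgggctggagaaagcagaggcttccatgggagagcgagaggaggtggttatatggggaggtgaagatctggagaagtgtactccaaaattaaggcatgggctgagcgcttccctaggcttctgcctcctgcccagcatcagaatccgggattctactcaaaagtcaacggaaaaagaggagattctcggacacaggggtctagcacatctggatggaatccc
Hspb1: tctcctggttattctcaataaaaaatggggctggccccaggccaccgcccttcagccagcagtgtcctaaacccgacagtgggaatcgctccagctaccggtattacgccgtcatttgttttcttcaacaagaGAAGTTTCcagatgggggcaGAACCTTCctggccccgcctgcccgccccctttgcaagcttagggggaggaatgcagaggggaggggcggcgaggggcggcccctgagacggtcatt
The short element was present in 5 of the 6 genes (5 of 7 windows) and in 15.1% of all 32851 RefSeq windows of that length. It began 120 bases before the start in Hspb6, 117 and 97 bases before it in Hspb1 and 224 bases before it in Hspb3, and at positions 3 and 43 counted from the start in Hspb8 and Bag3. Hspb7 had no match in its window. In 4 of the 6 genes (Hspb1, Hspb6, Hspb8 and Bag3) the match was the same octamer, GAAGTTTC, which 1.21% of all windows hold. This octamer is a case of the short element and was chosen after the matches had been seen. Its long form, with a further inverted unit, was in none of the 7 windows and in 0.603% of all windows. An E-box, CANNTG, the site of myogenic factors, was in 4 genes and in 72.3% of all windows, and TATAAA in 2 genes (Hspb6 and Hspb3) and in 13.6%. All motifs were searched on both strands. Of the genes that fell, Cryab had no window, Hspb7 no match to the short element, and Hspb6 a match in its second window only. Hspb1, Hspb3, Hspb8 and Bag3, which did not pass, each held the short element. Whether the element goes with the fall was not tested.

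In these samples the muscle without DJ-1 had less RNA of Cryab, Hspb6 and Hspb7, while Hspb8 and Bag3 did not pass the test. By mean level per kilobase, those that fell were the most abundant small heat shock genes of the control muscle. The calls depended on the samples and the model. Without control 2 only Cryab kept its call, and with a term for replicate number only Hspb6 did. In the comparison of knockout with control, 3 of the 8 genes fell and 0 rose at an adjusted p under 0.05 (14.9% of all tested genes were called, 8.23% lower and 6.67% higher). The median log2 fold change of the 8 genes was -0.57, against 0.0059 over all tested genes, and 7 of the 8 values were below 0. The knockouts lay entirely below the controls in 4 genes (Hspb2, Hspb3, Hspb6 and Cryab) and entirely above them in 0, where 14.7% and 14.0% of all tested genes did so. At an unadjusted p under 0.05 the count was 5, against 31.8% of all genes. Summed over the 8 genes, controls held 4568 ± 1665 CPM (SD, n = 3) and knockouts 2418 ± 520 CPM (SD, n = 4), and knockout 1, at 3173 CPM, came close to control 1, at 3207 CPM. In whole muscle, fewer cells of a type and less RNA per cell cannot be told apart.

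**Figure D1:**
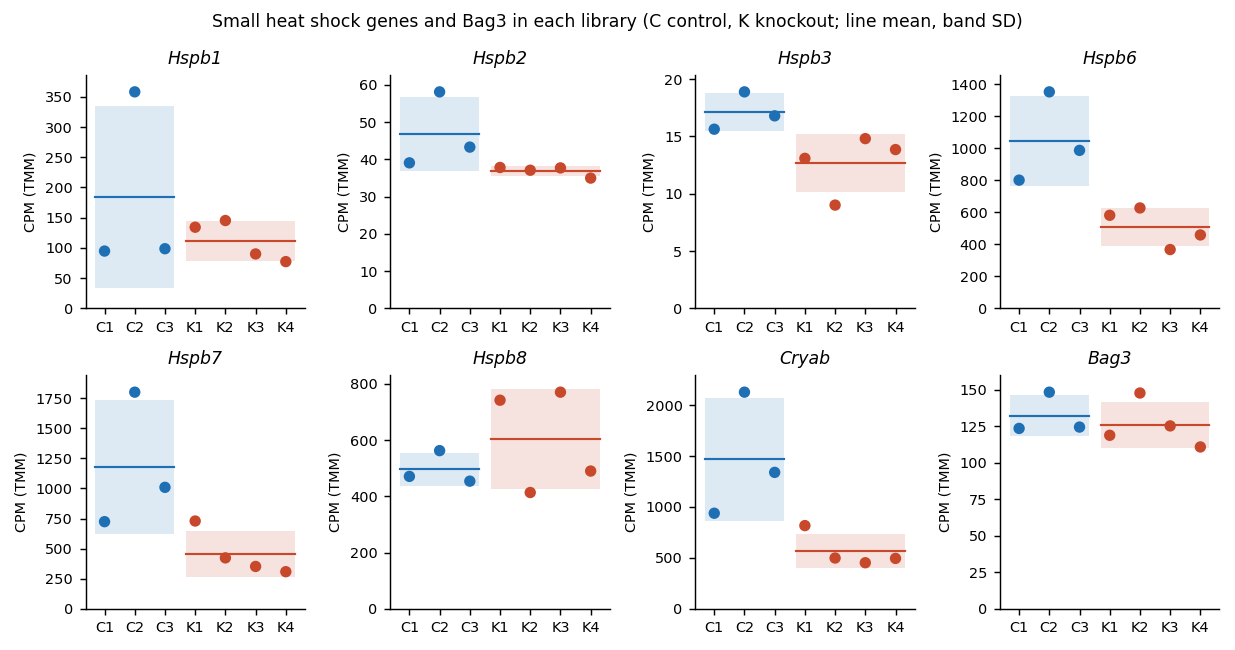
CPM of each gene in each library (C1 to C3 control, K1 to K4 knockout), with a line at the group mean and a band of 1 SD. Control 2 is the highest library in every panel except Hspb8, and the knockouts lie below all controls for Hspb2, Hspb3, Hspb6 and Cryab.

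Cryab encodes alpha B-crystallin, a chaperone of desmin filaments and the Z-disc. Its level was 938, 2127 and 1339 CPM in controls 1 to 3 and 817, 498, 452 and 495 CPM in knockouts 1 to 4. All knockouts were below all controls, with control 2 far above the rest and knockout 1 well above the other knockouts. The means were 1468 ± 605 CPM (SD, n = 3) and 565 ± 169 CPM (SD, n = 4), and Cryab fell by 1.38 on the log2 scale (SE 0.284, 95% interval -2.02 to -0.74, adjusted p = 0.0163). It was called without each library in turn, at adjusted p-values up to 0.0477. Per kilobase of its main transcript, the only scale on which genes can be ranked, Cryab was the most abundant of the 8 genes in both groups, at 1552 ± 640 CPM per kb in controls and 598 ± 178 in knockouts.

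Hspb6 (HSP20) binds actin and is phosphorylated by the cyclic nucleotide kinases. It read 800.5, 1351 and 986 CPM in the controls and 581, 627, 367 and 459 CPM in the knockouts. The lowest control stood above the highest knockout. Hspb6 fell, with means of 1046 ± 280 CPM in controls (SD, n = 3) and 509 ± 118 CPM in knockouts (SD, n = 4) and a log2 fold change of -1.04 (95% interval -1.52 to -0.56, SE 0.214, adjusted p = 0.0162). Without control 2 the log2 fold change was -0.81 and the call ended (adjusted p = 0.0518). The annotated gene overlaps Lin37, Proser3 and Gm38670, so reads may be shared with them, although its counts were whole numbers.

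Hspb7 (cvHSP), which binds filamin C and titin in heart and skeletal muscle, was the gene with the widest range over libraries on the log2 scale. It read 724, 1800.5 and 1009 CPM in controls 1 to 3 and 729, 423, 352 and 308 CPM in knockouts 1 to 4. Knockout 1 was level with control 1, so the groups overlapped, and control 2 was again the highest. Hspb7 fell by 1.38 on the log2 scale (SE 0.351, 95% interval -2.17 to -0.59, adjusted p = 0.0324). Its mean was 1178 ± 558 CPM in controls (SD, n = 3) and 453 ± 190 CPM in knockouts (SD, n = 4). This call ended without control 2 (log2 fold change -0.93, adjusted p = 0.105), control 3 (0.0679), knockout 2 (0.0536), knockout 3 (0.0845) or knockout 4 (0.0746).

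Hspb2 and Hspb3 form a complex with each other that is made late in muscle differentiation. Hspb2 read 39.1, 58.2 and 43.3 CPM in controls and 37.9, 37.1 and 37.7 CPM in knockouts 1 to 3. Knockout 4 was the lowest, and the knockouts (mean 36.9 ± 1.32 CPM; SD, n = 4) were tightly grouped just under the lowest control. Its log2 fold change was -0.34 (SE 0.127, adjusted p = 0.103), and -0.16 without control 2. Hspb3 read 15.6, 18.9 and 16.8 CPM in controls and 13.1, 9.01, 14.8 and 13.9 CPM in knockouts, with a log2 fold change of -0.43 (adjusted p = 0.107, SE 0.163). Here too every knockout was below every control, with knockout 2 the lowest, and neither gene passed. The 95% intervals were -0.63 to -0.056 for Hspb2 and -0.80 to -0.064 for Hspb3. That of Hspb3 overlapped those of Cryab, Hspb6 and Hspb7. That of Hspb2 overlapped those of Hspb6 and Hspb7 but not that of Cryab, whose upper bound was -0.74.

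Hspb1 (HSP25 in mice, HSP27 in people) stabilizes actin and is induced by stress. It read 94.9, 358 and 98.8 CPM in controls and 134, 145, 90.1 and 77.5 CPM in knockouts. The other controls lay inside the range of the knockouts, and control 2 alone stood apart, at 3.70 times the mean of the other controls. The log2 fold change was -0.72 (SE 0.449, 95% interval -1.73 to 0.30, adjusted p = 0.306), and 0.21 without control 2. The sign of the Hspb1 value thus rested on 1 control library.

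Hspb8 (HSP22) and Bag3 work together in the filamin-clearing assembly. Hspb8 read 471, 562 and 454 CPM in controls and 742, 413, 770.2 and 489.7 CPM in knockouts. Knockouts 1 and 3 were above all controls, knockout 4 lay among them and knockout 2 was the lowest library. Its log2 fold change was 0.28 (SE 0.213, 95% interval -0.20 to 0.77, adjusted p = 0.394). Bag3 read 124, 148 and 125 CPM in controls and 119, 148, 125 and 111 CPM in knockouts, the narrowest range of the 8 genes on the log2 scale. Its log2 fold change was -0.07 (SE 0.113, 95% interval -0.33 to 0.18, adjusted p = 0.696), and 0.021 without control 2. The annotated Bag3 gene overlaps 2610306O10Rik.

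**Figure D2:**
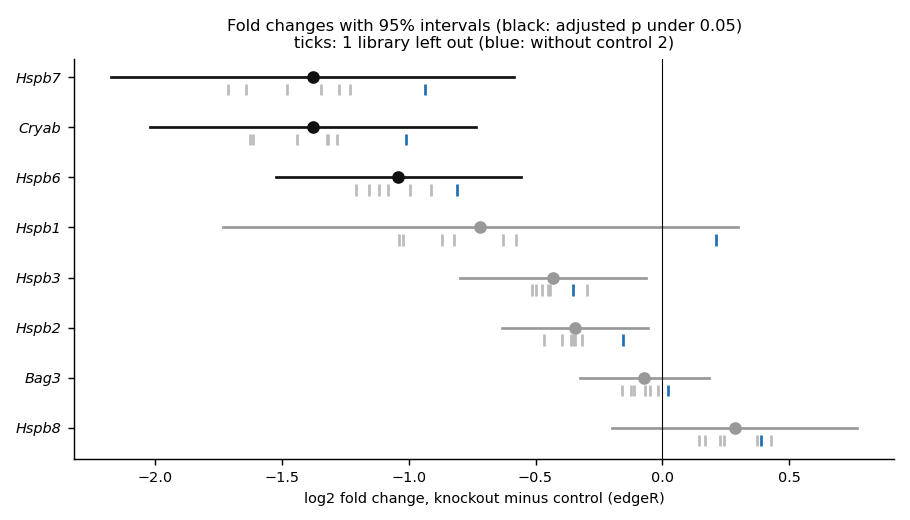
Log2 fold change (knockout minus control) of each gene from edgeR with its 95% interval, black where the adjusted p was under 0.05. Ticks under each point are the values with 1 library left out and the blue tick is the value without control 2, which lies nearest to 0 for Cryab, Hspb6, Hspb7 and Hspb2 and on the other side of 0 for Hspb1 and Bag3.

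Control 2 was the highest of all 7 libraries for 7 of the 8 genes, and ranked 3 for Hspb8. Its excess over the mean of the other controls differed between genes. It was 3.70 times for Hspb1, 2.08 for Hspb7, 1.87 for Cryab, 1.51 for Hspb6 and 1.41 for Hspb2, and between 1.16 and 1.22 times for Hspb3, Bag3 and Hspb8. The Z-disc protein gene Xirp1, which was chosen for its likeness to Hspb1, read 632 CPM in control 2 and 177 and 151 CPM in the other controls. Further genes, picked after their values had been seen, were Flnc, the filamin of muscle (2915 CPM against 1159 and 1218), and Ankrd1, a titin-binding stress protein (161 CPM against 26.44 and 21.9). Neither passed the test between groups (adjusted p = 0.987 for Flnc and 0.0856 for Ankrd1). The summed level of smooth muscle and pericyte markers was 487 CPM in control 2, between 413 and 559 CPM in the other controls. Its slow fibre score, defined below, was the highest of the 7 libraries, at 1.67 against 1.52 and 1.59 in the other controls. The summed level of genes of the HSP70, HSP110 and HSP90 system was also highest in control 2, at 4331 CPM against 3686 and 3820 CPM in the other controls. The cause of the high levels in control 2 was not tested.

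The order of the genes by level per kilobase in controls was Cryab, Hspb6 (767 ± 206 CPM per kb), Hspb7 (425 ± 201.4), Hspb8 (273 ± 32.2), Hspb1 (204 ± 167), Hspb2 (60.6 ± 12.9), Bag3 (51.6 ± 5.50) and Hspb3 (21.9 ± 2.11; SD, n = 3 throughout). Each neighbour in that order overlapped the next within 1 SD, except Bag3 and Hspb3. In knockouts Hspb8 took the place after Hspb6 (332 ± 98.5 and 373 ± 86.5 CPM per kb; SD, n = 4), and Hspb7 came after it at 164 ± 68.7. Bag3 (49.1 ± 6.20) and Hspb2 (47.8 ± 1.71) changed places with a gap smaller than the SD. Hspb3 was the least abundant in both groups.

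Ratios of partner genes within a library do not depend on scaling. The ratio of Cryab to its neighbour Hspb2 was 24.0, 36.6 and 30.9 in the controls and 21.6, 13.4, 12.0 and 14.1 in the knockouts. Knockout 1 was just under control 1 and the other knockouts were well below. The difference in log2 ratio was -1.01, with every knockout under every control, and did not pass the exact permutation test after adjustment over the 3 ratios computed (two-sided exact p = 0.0571, adjusted p = 0.171, with a smallest possible p of 0.0286). A single ratio at that smallest p would not pass the adjustment either unless another ratio were also low. The test therefore could not decide whether this ratio differed. As reads may be shared within this pair, the ratio is uncertain.

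The ratio of Hspb8 to Bag3 was 3.81, 3.79 and 3.64 in controls and 6.24, 2.79, 6.14 and 4.41 in knockouts. The controls were nearly equal, with an SD of 0.035 on the log2 scale, while the knockouts lay on both sides of them with an SD of 0.54. The mean log2 ratios differed by 0.32 (two-sided exact permutation p = 0.314, adjusted p = 0.471). Whether the spread differed between groups was not tested. For Hspb2 and Hspb3 the difference was 0.13 (two-sided exact permutation p = 0.686, adjusted p = 0.686).

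Of 11 slow fibre genes 6 fell and 0 rose (median log2 fold change -2.33), and in all 11 every knockout lay below every control. Casq2, the calcium store protein of slow and heart muscle, and Myh7b, a slow-type myosin, fell by 1.84 and 2.01 (adjusted p = 0.00427 and 0.0132). Atp2a2, the slow calcium pump, fell by 2.08 (adjusted p = 0.0247, and 0.0589 to 0.0647 without any 1 control), and Pln by 1.25 (adjusted p = 0.0166, and 0.0629 without control 1). The spread of these genes among the knockouts allowed a test of whether the small heat shock genes followed them from library to library. Myh7, the slow myosin heavy chain, read 646, 761 and 762 CPM in controls and 237, 9.28, 5.77 and 288 CPM in knockouts. Tnnt1 and Tnni1, the slow troponins T and I, read 46.7, 7.11, 2.67 and 57.0 CPM and 21.1, 1.33, 0.557 and 15.9 CPM in the knockouts, with control levels of 141 to 193 CPM and 40.1 to 57.8 CPM. Knockouts 2 and 3 had almost no RNA of these 3 genes, and knockouts 1 and 4 kept some. None of the 3 passed the test between groups (adjusted p = 0.165, 0.0667 and 0.0981). A slow fibre score, the mean over 11 slow genes of log2 CPM less each gene's own mean, was 1.52, 1.67 and 1.59 in controls and -0.0029, -1.95, -2.99 and 0.17 in knockouts. The groups did not overlap in it, so no correlation over all libraries is given.

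**Figure D3:**
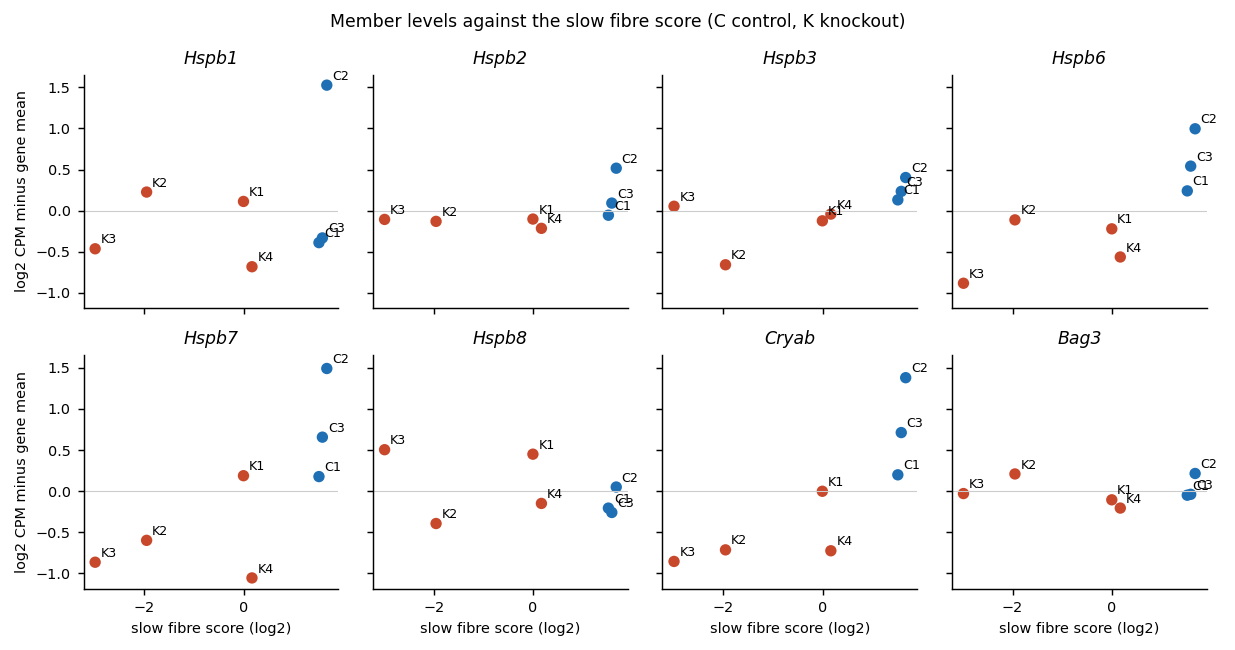
Level of each gene (log2 CPM less the gene's mean) against the slow fibre score (log2) in each library, C for control and K for knockout. The controls sit together at 1.52 to 1.67 on the score with member levels spread vertically, and the knockouts spread over the score from -2.99 to 0.17.

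Within groups, none of the 8 genes passed a test of slope on the slow fibre score (edgeR quasi-likelihood test of the score in a model with a term for the group). The smallest adjusted p was 0.9747 and the smallest unadjusted p was 0.212. Of all tested genes 6 passed (0.0447%), each with a positive slope and each a part of the score itself, and 619 genes did at an unadjusted p under 0.05 (4.62%). Cryab had the steepest slope, 0.18 log2 units per unit of score (SE 0.136, 95% interval -0.13 to 0.50), followed by Hspb7 at 0.18 (SE 0.178, interval -0.23 to 0.59) and Hspb6 at 0.091 (SE 0.114, interval -0.17 to 0.35). Among the slow genes that passed, Myh7 had a slope of 1.91 (SE 0.142, adjusted p = 0.00193). Tnni1 had 1.73 (SE 0.127, adjusted p = 0.00193) and Tnnt1 1.39 (SE 0.0648, adjusted p = 0.000222). Slopes of the slow genes that did not pass were 0.97 for Myl2, 0.69 for Atp2a2, 0.42 for Myh7b, 0.30 for Casq2 and -0.16 for Pln. The upper bounds for Cryab, Hspb7 and Hspb6 all lie below 1, the slope of a gene that moves as the score does. Some slow genes also had slopes below 1, and those of Casq2 and Myh7b lay inside the Cryab interval. A bound below 1 therefore does not set these members apart from slow fibre genes. The remaining members' slopes ran from -0.071 (Bag3) to 0.019 (Hspb3).

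Single libraries lay on both sides. The controls' order in the score (control 2, 3, 1) was also their order in every member except Hspb8. In Hspb1 and Bag3 controls 3 and 1 were nearly equal. Knockout 3, with the lowest score, was the lowest library for Cryab and Hspb6. Knockouts 1 and 4 had nearly equal slow fibre scores, but Cryab read 817 CPM in knockout 1 and 495 CPM in knockout 4, and Hspb7 read 729 and 308 CPM. Knockout 4 matched knockouts 2 and 3 in Cryab, although its summed level of slow fibre genes was 743 CPM and theirs were 145 and 87.6 CPM. Hspb8 was highest in knockouts 1 and 3, which lay far apart in the score. With 1 library left out the slope of Cryab ran from 0.054 without knockout 1 to 0.31 without knockout 4, and that of Hspb7 from -0.062 to 0.38 for the same libraries.

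At equal slow fibre score, the difference between groups was -0.88 for Cryab (SE 0.480, adjusted p = 0.490), -0.90 for Hspb7 (SE 0.628, adjusted p = 0.575) and -0.79 for Hspb6 (SE 0.396, adjusted p = 0.460), so no member was called. Only 1 of the 13409 genes was called in that fit. Since the score and the group do not overlap, their parts in the fall of these genes cannot be told apart. In a fit with the score and no group term, Cryab was called with a slope of 0.39 (adjusted p = 0.0485), and Hspb7 (0.39, adjusted p = 0.0820) and Hspb6 (0.28, adjusted p = 0.0706) were not. That fit called 478 genes, 3.56% of those tested, and its slope includes the difference between groups.

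Among the 8 genes, Cryab and Hspb7 had the most similar profile over the 7 libraries, with a root mean square difference of 0.16 between their centred log2 CPM. Hspb2 and Bag3 came next (0.18), and Hspb7 and Hspb8 were the farthest apart (0.92). The genes of the table nearest to the 3 members with the widest range of log2 CPM were then found among 10717 genes by the same measure. Nearest to Hspb7 were Dnaja4 (0.25), a J-domain partner of HSP70, Ttc9 (0.31) and Lmcd1 (0.32), where the median gene was at 0.87. Nearest to Cryab were Dkk2 (0.23), an inhibitor of WNT signalling, Psat1 (0.23), an enzyme of serine synthesis, and Inpp4b (0.24), a lipid phosphatase (median 0.81). Nearest to Hspb1 were Rgcc (0.21), Xirp1 (0.24) and Dusp18 (0.26), with a median of 0.72.

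**Figure D4:**
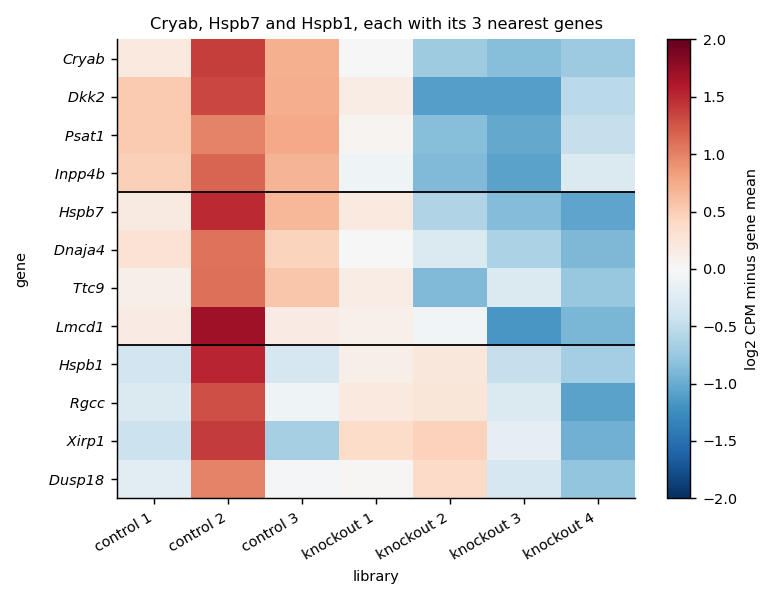
Centred log2 CPM (colour) of Cryab, Hspb7 and Hspb1, each above its 3 nearest genes, in the 7 libraries. In all 12 rows control 2 holds the highest value, which for the nearest genes follows from how they were chosen.

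Dnaja4 read 162, 282 and 181 CPM in the controls and 133, 109, 85.2 and 71.1 CPM in the knockouts, at a log2 fold change of -1.07 (adjusted p = 0.0216 as a gene of the J-domain list, SE 0.238). Since the 9 nearest genes were chosen for their likeness to a member over these same libraries, a shared peak in control 2 and a shared difference between groups follow from the choice and are given as description. The call of Dnaja4 ended without control 2 (adjusted p = 0.0653) or knockout 3 (0.0612). Dkk2, Psat1 and Inpp4b had log2 fold changes of -1.47, -1.32 and -1.33 and were rare transcripts, at 0.796 to 21.1 CPM over all libraries. For Rgcc, Xirp1 and Dusp18 the log2 fold changes were -0.63, -0.40 and -0.47.

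Other chaperones and partners did not show one direction. In 8 lists of 107 tested genes, 11 rose and 12 fell, against 6.67% and 8.23% of all tested genes. Of these, 1 rise and 6 falls were in the list of filaments and anchors, and the chaperone, BAG and heat shock factor lists held the other 10 rises and 6 falls. Among 18 genes of the BAG3 assembly and its substrates, 1 rose and 1 fell (median 0.026). Hspa1l, an HSP70 form, read 36.4, 59.2 and 36.0 CPM in controls and 19.2, 22.8, 13.1 and 15.7 CPM in knockouts and fell by 1.31 (SE 0.222, adjusted p = 0.00875), and the kinase gene Lats1 rose by 0.31 (adjusted p = 0.0340). The constitutive HSP70 gene Hspa8 and the ligase gene Stub1, picked after their values had been seen, did not pass, at -0.13 (adjusted p = 0.601) and -0.20 (adjusted p = 0.131). Of 5 other BAG genes Bag6, which guards proteins bound for membranes, rose by 0.34 (SE 0.0740, adjusted p = 0.0188). The call of Hspa1l held without each library in turn, but its counts were not whole numbers in 7 libraries, so reads may be shared with another gene. That of Lats1 ended when any library except control 1 and knockout 2 was left out (adjusted p = 0.0588 to 0.117), and under upper quartile scaling (0.0654) or no filter (0.0550), and that of Bag6 ended without any control (0.0556 to 0.0814) or knockout 3 (0.0508). Hspb11, the only other gene of the family list that could be tested, was at 1.09 to 2.36 CPM (log2 fold change 0.55, adjusted p = 0.154).

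Of 26 genes of the HSP70, HSP110 and HSP90 system, 2 rose and 3 fell (median 0.00072). Fkbp5, an HSP90 co-chaperone of steroid receptors, rose by 0.91 (SE 0.180, adjusted p = 0.0141) and Ptges3 (p23) by 0.50 (SE 0.0954, adjusted p = 0.0124). The HSP70 forms Hspa2 and Hspa12a fell by 0.82 and 0.71 (adjusted p = 0.00663 and 0.0313), as did Hspa9 of mitochondria by 0.40 (adjusted p = 0.0495). Of 20 J-domain genes, 3 rose (Dnajb5 by 0.60, Dnajb12 by 0.42 and Dnajc5 by 0.30, adjusted p = 0.0147, 0.0113 and 0.0300) and 2 fell (Dnaja4 and Dnaja3). Of 15 genes of chaperonins and prefoldin, Cct7 and Cct4, subunits of the folding ring for actin and tubulin, rose by 0.52 and 0.47 (adjusted p = 0.00692 and 0.0166) and 0 fell. Hsf1, the main heat shock factor, rose from 30.0 to 36.3 CPM in controls to 38.8 to 44.5 CPM in knockouts, by 0.36 (SE 0.0940, adjusted p = 0.0367), as the 1 of 3 factors called. The calls of Fkbp5, Ptges3, Hspa2, Dnajb12 and Cct7 held without each library in turn. Counts were not whole numbers in 7 libraries for Ptges3 and in 5 for Cct7, so reads may be shared with other genes. Those of Hsf1 and Dnajc5 ended without most libraries (up to adjusted p = 0.132 and 0.123, both without control 1), and with no filter (0.0546 and 0.0536), that of Hsf1 also under upper quartile scaling (0.0525), as did those of Hspa9 and Dnaja3 (up to 0.152 and 0.107, both without control 2; 0.0613 and 0.0649 with no filter). Dnajb5 and Cct4 lost theirs without control 1 or control 3 (0.0586 to 0.0696), and Hspa12a without control 1 (0.0983), knockout 1 (0.0590) or knockout 3 (0.0821).

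**Figure D5:**
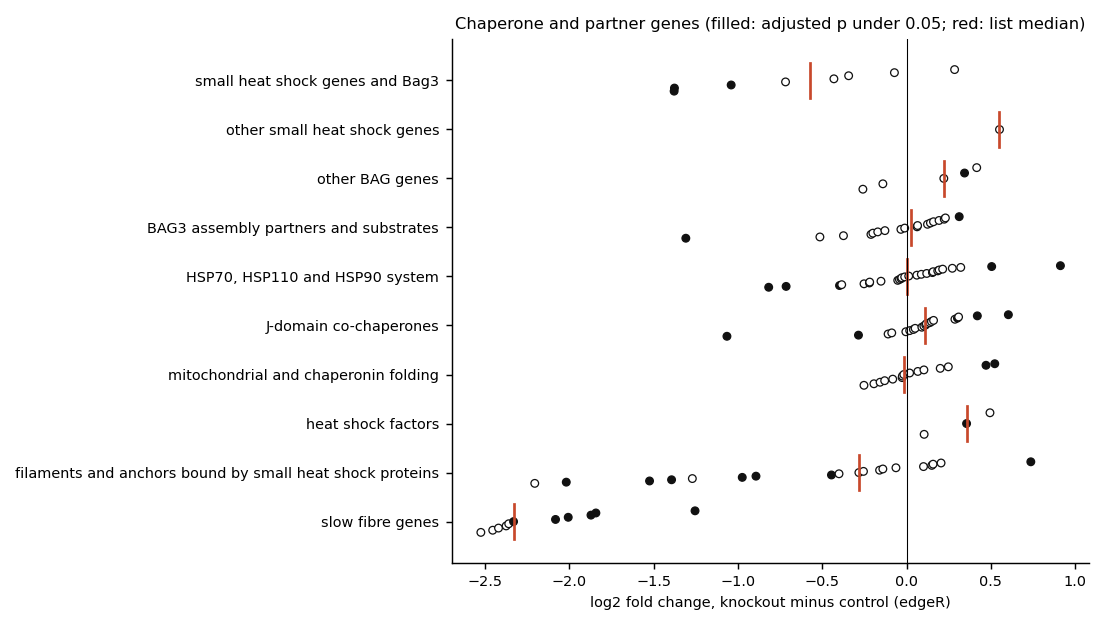
Log2 fold change (knockout minus control) of each tested gene by list, filled where the adjusted p was under 0.05, with a red bar at the list median. Small heat shock genes and Bag3 have a median of -0.57, the HSP70, HSP110 and HSP90 system one of 0.00072, and slow fibre genes one of -2.33.

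Of 19 genes for the filaments and Z-disc anchors that small heat shock proteins bind, 6 fell and 1 rose (median -0.28). Actn2, an alpha-actinin, read 1158, 1981 and 1421 CPM in controls and 585, 835, 364 and 530 CPM in knockouts. It fell by 1.39 (SE 0.266, adjusted p = 0.0128), and the part of fibre type in this fall was not tested. Its order over the libraries was that of Hspb6, with control 2 the highest and knockout 3 the lowest. Vim and Nes, filament genes of immature fibres and of other cells, fell by 0.97 and 0.89 (adjusted p = 0.00674 and 0.0254), as did Myoz2, Ankrd2 and Xirp2 (by 2.02, 1.52 and 0.45), while Actn3, the alpha-actinin of fast fibres, rose by 0.74 (adjusted p = 0.0214). Des, the gene of desmin, stood at a log2 fold change of 0.15 and did not pass (adjusted p = 0.411), so no change was detected in the RNA of the filament bound by alpha B-crystallin. The calls of Actn2 and Vim held without each library in turn. Nes lost its call without control 2 (0.0563) or knockout 3 (0.0517), Actn3 without control 1 (0.0867) or control 2 (0.0738), and Myoz2, Ankrd2 and Xirp2 without 3 or more libraries each (up to 0.133, 0.0930 and 0.0945, all without control 2).

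Smooth muscle also makes Hspb6, Hspb1 and Cryab, and some markers of cells other than fibres fell in the knockouts. Of 9 smooth muscle and pericyte markers 5 fell and 0 rose (median -0.42), with summed levels of 413 to 559 CPM in controls and 374 to 444 CPM in knockouts, which overlapped. For 7 endothelial markers 2 fell (230 to 270 against 184 to 202 CPM), for 7 fibroblast markers 3 (319 to 557 against 236 to 335 CPM), for 5 Schwann cell markers 2 (65.1 to 259 against 41.3 to 58.3 CPM) and for 5 tested macrophage and leukocyte markers 2 (17.6 to 19.6 against 6.81 to 10.6 CPM). Of 4 tested tenocyte markers 1 fell, of 5 tested adipocyte markers 1, of 5 erythroid markers 3, and of 4 satellite cell markers 0 (44.9 to 53.9 against 44.5 to 62.7 CPM). None of the markers rose. None of these marker genes was at 0 in all libraries. The part of these cells in the lower levels of Cryab, Hspb6 and Hspb7 was not tested.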

How the data were processed

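RNA of 7 gastrocnemius samples was read on a BGIseq500 as 150 bp paired ends per the labels' protocols. The authors deposited RSEM expected counts per gene symbol (STAR 2.7.10a, RSEM 1.2.28 and mm10, per the series' design text and the submitters' processing notes). Neither the annotation nor the strand setting is given in the sources used here. Of the deposited values 7.59% were not whole, and all were rounded. The test was that of edgeR 4.0.16 in R 4.3.3 (filterByExpr, TMM, quasi-likelihood F test, Benjamini-Hochberg adjustment over 13409 genes, called under 0.05). Each SE was taken as the size of the fold change (log2) divided by the root of F. Log2 CPM used a prior count of 2. Scripts were tested on simulated data. Library totals are given with the results; every pair of libraries differed by more than sampling noise.

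The members and gene lists were chosen with earlier results of these data known, and no list is independent evidence. Genes named were all members, Park7, Myh7, Tnnt1 and Tnni1. From each list other than cell markers, up to 4 called genes with the smallest p were named (or 2 genes if none was called). For the 3 members with the widest range of log2 CPM, the 3 nearest genes with an average log2 CPM above 1 were named. Other names were added after their values were seen: Flnc, Ankrd1, Hspa8, Stub1, Des, Hspa9, Dnaja3, Myoz2, Ankrd2 and Xirp2. Levels per kilobase used the principal transcript of GENCODE M21. Ratios were tested by exact permutation over 35 splits.

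Alternatives were scaling by RLE or upper quartile, a filter at a mean count of 10 or none, the Wald test of DESeq2 1.42.0, a replicate block, each library left out, other slow scores and, chosen after seeing the data, edgeR's legacy fit. No protein sequence was analysed here.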

Additional observations from a re-analysis of the deposited data

Results flagged for a closer look

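In 38 sets of 4 knockout values, the gap of the highest or lowest library to its neighbour was compared with the whole range by Dixon's ratio at its 95% critical value, which flags about 1 set in 20 by chance, and 2 sets passed it. Cryab read 816.757 CPM in knockout 1, against 452 to 498 CPM in the other knockouts (ratio 0.873). Pln, the regulator of the slow calcium pump, read 0.761427 CPM in knockout 1, against 1.52 to 1.63 CPM in the others (ratio 0.873). Cryab was thus high and Pln low in the same library.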

How the results depend on the processing

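The 3 falls (Cryab, Hspb6 and Hspb7) and 0 rises were unchanged under RLE or upper quartile scaling, both other filters, DESeq2 and edgeR's legacy fit. With a replicate block 1 fell, Hspb6 (Cryab adjusted p = 0.0687, Hspb7 0.100). Same-numbered libraries had correlations of 0.094, 0.134 and 0.085 in their deviations from the group means. These values were low, but each control matched its own number best. Whether the numbers mark paired samples therefore stayed undecided. With the slow fibre score as a covariate 0 fell. With 1 library left out 1 to 3 fell, 1 of them (Cryab) without control 2, in fits with fewer samples. No slope was called under any setting except without a group term, where 1 (Cryab) was. Of the genes in the other lists 12 fell, 7 with the replicate block and 5 to 11 with 1 library left out, and 11 rose (5 to 13). The lowest number that fell, 5, came without control 2, and the lowest that rose, 5, without control 1. The ratio of Cryab to Hspb2 kept its sign (-1.19 to -0.87) and that of Hspb2 to Hspb3 ran from -0.031 (without knockout 2) to 0.22.

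Left out in turn, libraries moved the log2 fold change of Hspb1 from -1.04 to 0.21 and of Bag3 from -0.16 to 0.021, and reversed slopes: Hspb1 -0.19 to 0.20, Hspb2 -0.024 to 0.014, Hspb3 -0.040 to 0.29, Hspb6 -0.12 to 0.19, Hspb7 -0.062 to 0.38 and Hspb8 -0.16 to 0.27. The slope of Hspb2 was 0.077 without a group term. The causes were not tested. Over all genes 1998 were called, 44.8% of them higher (33.2% of 1939 with upper quartile scaling), 1274 with the replicate block, 1 with the covariate and 793 to 2057 with 1 library left out. Precision is limited by 3 against 4 samples. The lowest member level was 9.01 CPM (Hspb3 in knockout 2).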
